A study of Mus musculus with 2 samples.

Results

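Venular endothelial cells were described in single-cell RNA sequencing of mouse mandibular lymph nodes. They were required to have 0 counts of Fut7 and Chst4, a fucosylation and a sulfation gene of high endothelial venules (HEVs). The cells were chosen by the measured counts of 6 genes, in barcodes with 500 or more detected genes and a mitochondrial share of no more than 10% of UMIs (unique molecular identifiers, which count RNA molecules). A venular cell had 0 Prox1 UMIs and at least 1 Pecam1 UMI. It also needed at least 2 UMIs of Ackr1 and Selp together and 0 UMIs of Fut7 and of Chst4. By this rule 346 of 22611 kept barcodes were venular cells, 132 of 11454 in the SAH library and 214 of 11157 in the sham library.

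The study set mice 24 h after subarachnoid hemorrhage (SAH), made by infusing each animal's own blood, beside mice 24 h after a sham operation. Each group was a single library from the pooled mandibular nodes of 20 mice, depleted of CD45-bearing cells and then enriched on beads with antibodies against CD31 and podoplanin, which endothelial cells and podoplanin-bearing stroma carry. Strain, sex and age are not given in the sources used here. With 1 library per group there is no replicate and no test: every interval below is a 95% interval that covers counting error only, and differences between the 2 pools of animals cannot be told apart from differences between the operations.

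Venules behind the capillary bed are the vessels in which leukocytes leave the blood. Their endothelium carries ACKR1, an atypical receptor that binds and transports inflammatory chemokines, and stores P-selectin (Selp) together with von Willebrand factor (Vwf) in Weibel-Palade bodies, granules that fuse with the surface within minutes of stimulation. In lymph nodes most of the postcapillary venules are HEVs, whose cells use the fucosyltransferase FUT7 and the sulfotransferase CHST4 to decorate scaffolds such as GLYCAM1 with ligands for L-selectin on naive lymphocytes. ACKR1 is found in both kinds of venule, so Ackr1 alone does not separate them. Ackr1 lies at chr1:173331886-173333750, Selp at chr1:164115264-164150026 and Vwf at chr6:125546774-125686679 (GENCODE M21, GRCm38, which is mm10).

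The name was checked on Vwf, a venular marker that the rule did not use. Levels are CPM, the UMIs of a gene in all cells of a class and library scaled to the UMI total of those cells. Vwf stood at 512 CPM in the SAH library and 273 CPM in the sham library in venular cells, at 224 and 99.4 CPM in HEV cells (Fut7 and Chst4 together at least 2 UMIs, 824 SAH and 754 sham cells), and at 11.5 and 6.92 CPM in other blood endothelial cells (no UMI of Ackr1, Selp, Fut7 or Chst4, 5202 SAH and 5168 sham cells). A Vwf UMI was found in 55.3% [46.4, 64.0] of SAH and 40.2% [33.6, 47.1] of sham venular cells, against 4.00% and 1.31% of fibroblasts, cells that should lack it. With each cell thinned to 2000 UMIs these shares were 40.0% and 31.1% of venular cells and 1.45% and 0.658% of fibroblasts, whose median depth was 6480 UMIs in SAH and 4827 UMIs in sham. Among HEV cells, 59.2% in SAH and 41.2% in sham had a Vwf UMI, and 28.6% and 14.5% after thinning. Sele, the cytokine-induced E-selectin of activated venules, was also highest in venular cells, at 50.6 CPM in SAH and 47.7 CPM in sham, against 19.4 and 22.3 CPM in HEV cells and 0.993 and 1.70 CPM in other blood endothelial cells. Endothelial genes outside the rule were abundant in venular cells, among them Plvap of fenestral diaphragms (2678 CPM in SAH and 2193 CPM in sham) and the vascular cadherin Cdh5 (557 and 811 CPM). A Sele UMI was found in 13.6% of SAH and 16.4% of sham venular cells, and in 9.60% and 4.78% after thinning, against 0% and 0.689% of fibroblasts before it. Vwf and Sele, summed over the class, thus go with the venular name in both libraries, and both were also present in HEV cells. For Sele this did not hold in the 71 SAH and 109 sham venular cells without a Selp UMI. Sele was at 15.6 and 13.5 CPM in them, below the HEV level. Their Vwf, at 335 and 130 CPM, was above the HEV level.

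The 0 counts of Fut7 and Chst4 are a count limit and not proof that the genes were silent. Venular cells had median depths of 5299.5 UMIs in SAH and 5327.5 UMIs in sham, against 9378 and 9661 UMIs in HEV cells. When HEV cells were thinned to 2000 UMIs, 22.8% of SAH and 27.6% of sham HEV cells had no UMI of either gene left, and 7.24% and 11.1% would also have met the Ackr1 and Selp limit of the venular rule. Only 7 SAH and 5 sham venular cells had under 2000 UMIs, so these shares do not measure how many venular cells are HEV cells. Some HEV cells of low depth can still lie among the venular cells. Just outside the rule, 83 SAH and 84 sham cells had Ackr1 and Selp at 2 or more and exactly 1 UMI of Fut7 or Chst4. Their Vwf levels were 262 CPM in SAH and 123 CPM in sham, and their Sele levels 24.5 and 53.6 CPM. Cells with Ackr1 and Selp together at 1 UMI (289 SAH and 277 sham) had 46.2 and 20.1 CPM of Vwf, those at 2 UMIs, just inside (40 and 61), had 250 and 96.0 CPM, and those at 3 or more (92 and 153) had 622 and 341 CPM. Vwf, which was not part of the rule, was thus ordered as the Ackr1 and Selp counts were, in both libraries.

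Glycam1, the secreted mucin of HEVs, was lower in most venular cells than in the median HEV cell, with overlap between the classes. The median cell held 5.004 Glycam1 UMIs per 10000 in SAH and 4.37 in sham among venular cells, 194 and 150 among HEV cells, and 3.63 and 1.98 among other blood endothelial cells. Fibroblasts, which do not make it, had medians of 3.17 and 1.59 per 10000, so the median venular cell was nearer to fibroblasts than to HEV cells. A minority of 15 SAH (11.4%) and 33 sham (15.4%) venular cells held over 50 per 10000, against 551 SAH (66.9%) and 461 sham (61.1%) HEV cells, and the 10 richest venular cells held 66.4% and 65.7% of all Glycam1 UMIs of their library. The summed level of 2605 CPM in SAH and 4582 CPM in sham venular cells is therefore set by few cells. Chst2, a second sulfotransferase, had 102 and 100 CPM in venular cells, against 207 and 196 CPM in HEV cells and 69.3 and 77.2 CPM in other blood endothelial cells. Gcnt1, the branching enzyme of the same glycans, had 35.8 and 41.3 CPM, against 140 and 146 CPM in HEV cells and 7.22 and 7.79 CPM in other blood endothelial cells. Both enzymes were thus intermediate in venular cells, below HEV and, for Gcnt1 more than for Chst2, above other blood endothelium.

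**Figure D1:**
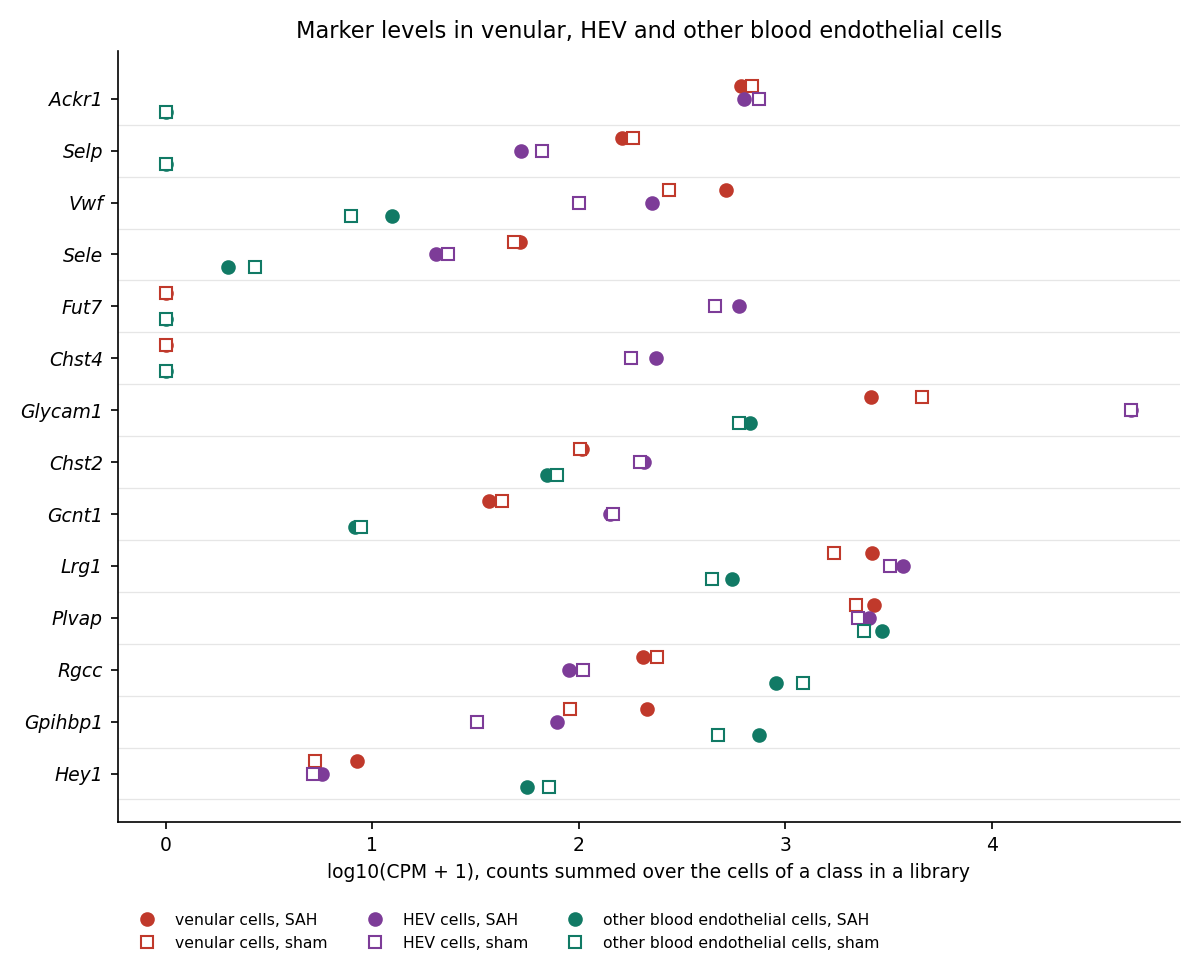
Levels of marker genes (rows) in venular, HEV and other blood endothelial cells, as log10(CPM + 1), in the SAH (filled circles) and sham (open squares) library. Vwf and Sele are highest in venular cells; Ackr1, Selp, Fut7 and Chst4 were used to choose the cells.

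The libraries held 13766 SAH and 13952 sham barcodes with 78497486 and 72860197 UMIs, and 810329 and 1404329 of these UMIs lay in venular cells. The samples are labelled as lymphatic endothelium, but other blood endothelial cells made up 45.4% of SAH and 46.3% of sham kept barcodes and cells with at least 2 Prox1 UMIs 16.6% and 15.5%. The libraries shared 76 barcode sequences, of which 0 belonged to venular cells. Scrublet called 12 of 132 SAH (9.09%) and 10 of 214 sham (4.67%) venular cells as doublets; they were kept. A UMI of Ptprc, Pdgfra, Cd79a, Cd3e, Lyve1 or Pf4, genes of other cell types, was present in 28 SAH (21.2%) and 40 sham (18.7%) venular cells.

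Venular cells were 1.15% [0.965, 1.37] of kept barcodes in SAH and 1.92% [1.67, 2.19] in sham, a ratio of 0.601 [0.480, 0.750]. The share of HEV cells had a ratio of 1.06 [0.963, 1.18], and that of other blood endothelial cells 0.980 [0.943, 1.02]. A lower share in SAH was not particular to venular cells. Mural cells were 1.41% of kept barcodes in SAH and 2.29% in sham, B cells 0.428% and 0.941%, and T cells 0.175% and 0.636%. Lymphatic endothelial cells (16.6% and 15.5%) and fibroblasts (13.7% and 13.0%) had higher shares in SAH. As a share of all Prox1-negative, Pecam1-positive cells the venular ratio was 0.605 [0.484, 0.756]. Median depth was nearly equal in the venular cells of both libraries, at 5299.5 UMIs in SAH and 5327.5 UMIs in sham, and the median mitochondrial share was 4.69% and 5.56%. When 1000 genes and no more than 5% mitochondrial UMIs were required, 76 SAH and 75 sham venular cells remained and the ratio was 0.759.

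Venular cells were next set beside HEV cells within each library. Because the classes were drawn by marker counts, these are descriptions of what else differs. A set of 2736 genes reached 50 CPM in venular or HEV cells of each library; 103 (3.76%) were at least 1.5-fold higher and 70 (2.56%) at least 1.5-fold lower in venular than in HEV cells in both. The median log2 ratio was 0.12 over 3029 genes with at least 50 CPM in either class in SAH and 0.10 over 3015 in sham, and with classes scaled by the median of ratios the split was 63 higher and 107 lower. The fatty acid transporter Cd36 had 369 CPM in SAH and 152 CPM in sham venular cells, against 45.4 and 14.3 CPM in HEV cells, and the fatty acid carrier Fabp4 had 4667 and 4555 CPM against 776 and 679.9 CPM. Mgll, which cleaves monoglycerides, stood 3.76-fold [2.99, 4.71] higher in SAH and 3.845-fold [3.03, 4.86] higher in sham. The 10 richest venular cells held 77.9% of Cd36 UMIs in SAH and 64.5% in sham. Each of the 3 genes was also well expressed in other blood endothelial cells, where Cd36 had 535 and 204 CPM, Fabp4 3959.9 and 3279.6 CPM and Mgll 275 and 181 CPM. Cysltr1, a receptor for cysteinyl leukotrienes, was different: 54.3 CPM in SAH and 52.0 CPM in sham venular cells, 13.2 and 10.1 CPM in HEV cells, and 3.59 and 3.24 CPM in other blood endothelial cells. It was thus highest in venular cells of the 3 classes in both libraries. Among the 10 named genes the other higher ones were Lbp, Fbln2, Pcp4l1, Lcn2, Cpe and Cp, and the lymph node chemokine Ccl19 was set apart because another class held over 10 times more of it. Few cells carried several of them: the 10 richest venular cells held 72.4% of Lcn2 UMIs in SAH and 96.1% in sham, and 59.2% and 75.3% of those of Cpe. Cpe was 1.52-fold the HEV level in SAH and 9.50-fold in sham. Lymphatic endothelial cells (at least 2 Prox1 UMIs) held more than venular cells of Lbp (520 CPM in SAH and 294 CPM in sham) and Lcn2 (524 and 224 CPM). The same held for Cpe (1104 and 1059 CPM) and Cp (769 and 537 CPM), but not for Fbln2 and Pcp4l1.

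Among the 10 named genes that were lower in venular than in HEV cells, Glycam1 had 0.0554-fold [0.0530, 0.0578] the HEV level in SAH and 0.0967-fold [0.0943, 0.0991] in sham. The prostaglandin D synthase Ptgds was at 3.70 and 7.83 CPM in venular cells, against 139 and 56.9 CPM in HEV cells. Hamp, which encodes hepcidin, was at 42.0 and 19.9 CPM, against 141 and 146 CPM, and 7 SAH and 6 sham venular cells held all of its UMIs. Oit1 was at 61.7 and 76.9 CPM, against 266 and 255 CPM. Ccl21a, the chemokine that draws CCR7-bearing cells, was at 4493 and 2462 CPM, against 16052 and 9986 CPM; it has near-identical copies in the mouse genome, so its counts are uncertain. The remaining named genes were Bpifb5, Serpina1e, Timp4, Nxph1 and Scgb3a1, at 0.0957- to 0.369-fold the HEV level.

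Against other blood endothelial cells, 100 of 3036 genes (3.29%) were at least 1.5-fold higher and 185 (6.09%) at least 1.5-fold lower in venular cells in both libraries. The median log2 ratio here was -0.09 over 3319 genes with at least 50 CPM in either class in SAH and -0.07 over 3298 in sham, and median-of-ratios scaling gave 142 higher and 134 lower. Vwf headed the higher genes, at 44.7-fold [38.4, 52.0] in SAH and 39.5-fold [33.0, 47.5] in sham. Several of the rest were genes that HEV cells held at still higher levels. The ubiquitin-like Ubd had 669 CPM in SAH and 594 CPM in sham venular cells, between 2178 and 1428 CPM in HEV cells and 107 and 64.4 CPM in other blood endothelial cells. Pglyrp1, which binds bacterial peptidoglycan, had 391 and 213 CPM, between 1140 and 966 CPM in HEV cells and 51.3 and 35.2 CPM in other blood endothelial cells. Lrg1, a secreted glycoprotein of venous endothelium, had 2614 and 1728 CPM, between 3699 and 3217 CPM and 549 and 439 CPM. Oit1, Serpina1e, Ehd3 and Spint2 were intermediate in the same way, whereas Net1, a guanine nucleotide exchange factor, was near the HEV level (74.0 and 52.7 CPM against 78.9 and 57.4 CPM). Glycam1 was set apart by the rule on genes over 10 times higher in another class.

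Hey1, one of the 10 named genes lower in venular than in other blood endothelial cells and a Notch target of arterial cells, was at 7.40 and 4.27 CPM in venular cells, against 54.8 and 71.0 CPM in other blood endothelial cells. Sema3g and the connexin Gja4, also arterial, were 0.161- and 0.151-fold in SAH and 0.0869- and 0.278-fold in sham. The capillary genes Rgcc, Car4, Btnl9, Rbp7 and Esm1 were 0.224- to 0.313-fold in SAH and 0.119- to 0.196-fold in sham. Penk and Acta2 completed the 10 named genes. Other capillary markers did not share these ratios: the water channel Aqp1 was above the level of other blood endothelial cells (1992 CPM in SAH and 1646 CPM in sham venular cells, against 1521 and 1393 CPM). Summed over 11 capillary markers, venular cells held 6196 CPM in SAH and 4740 CPM in sham, against 7499 and 6372 CPM in other blood endothelial cells. That sum includes Aqp1 and also Plvap, of which 99.6% of SAH and 99.9% of sham HEV cells had a UMI. It is thus no measure of the lower capillary genes.

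Adhesion molecules showed where venular cells resembled HEV cells and where they did not. Icam1 had 154 CPM in SAH and 156 CPM in sham venular cells, 211 and 164 CPM in HEV cells and 77.3 and 60.2 CPM in other blood endothelial cells. Vcam1 had 241 and 246 CPM in venular cells, 175 and 147 CPM in HEV cells and 169 and 115 CPM in other blood endothelial cells. Madcam1, the mucosal addressin, was sparse, with 10 UMIs in SAH and 48 in sham. Of the 13 adhesion genes with a mean of at least 50 CPM in venular cells, 0 were at least 1.5-fold higher in SAH than in sham, beside 7.53% of the 2907 genes at that level, and 2 were at least 1.5-fold lower, beside 7.6%; genes used by the rule are left out of list counts. These were the junctional Jam3 (127 CPM in SAH and 200 CPM in sham) and Mcam (67.9 and 131 CPM).

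The venular cells were not uniform. In SAH 61 cells and in sham 105 cells had a Selp UMI, and 71 and 109 cells met the rule on Ackr1 alone. Since Selp counts divided them, only other genes are described. Vwf was 733 CPM with Selp and 335 CPM without it in SAH, a ratio of 2.18 [1.78, 2.69], and 433 CPM and 130 CPM in sham, a ratio of 3.34 [2.64, 4.25]. Sele was 6.07-fold [2.65, 16.2] higher with Selp in SAH and 6.35-fold [3.21, 13.9] in sham. Cysltr1 was 3.33-fold [1.67, 7.10] and 4.31-fold [2.41, 8.18] higher, and the vascular phosphatase Ptprb 1.61-fold [1.30, 2.01] and 1.76-fold [1.47, 2.12]. Glycam1, Enpp2 and Pglyrp1 were lower with Selp in both libraries. Glycam1 was 0.277-fold [0.247, 0.310] in SAH and 0.688-fold [0.654, 0.724] in sham, Enpp2 (autotaxin), which makes lysophosphatidic acid, was 0.648-fold and 0.686-fold, and Pglyrp1 0.567-fold and 0.612-fold. The 10 richest venular cells held 66.4% of Glycam1 UMIs in SAH and 65.7% in sham. The Glycam1 ratios can therefore depend on the subset in which a few cells fall, which their counting intervals do not cover. Other genes with higher levels in HEV than in venular cells differed: Lrg1 was higher with Selp, at 1.39-fold [1.28, 1.52] and 1.28-fold [1.18, 1.39], and Gcnt1 had intervals that included 1. Plvap and Aqp1 differed little between the subsets, at 0.975- to 1.08-fold. Median depth was similar, at 5150 UMIs with Selp and 5931 UMIs without in SAH, and 5067 and 5466 UMIs in sham. Both libraries, from separate pools of mice, gave the same order for Vwf, Sele, Cysltr1, Ptprb, Glycam1, Enpp2, Pglyrp1 and Lrg1. Not every gene did so: Rgcc was 1.52-fold with Selp in SAH and 0.564-fold in sham, and Isg15 1.12-fold and 0.464-fold.

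**Figure D2:**
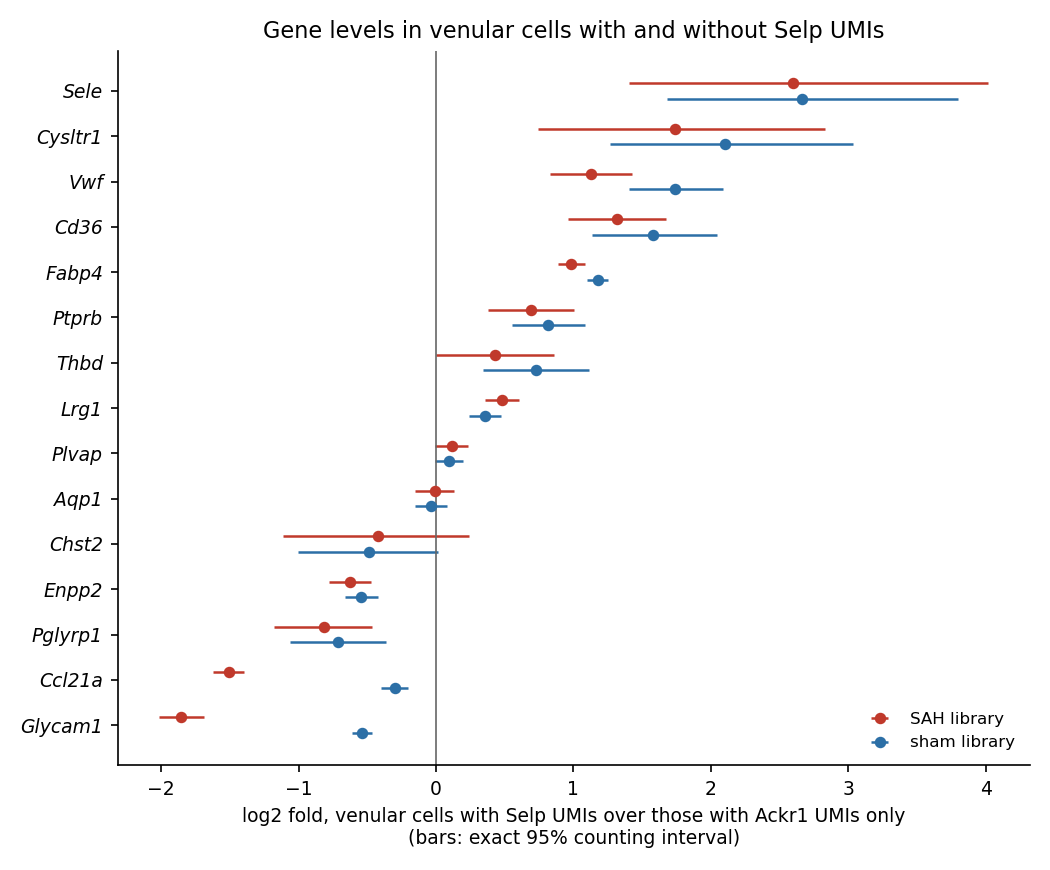
Ratio of gene levels in venular cells with Selp UMIs over venular cells with Ackr1 UMIs only, on the log2 scale, in the SAH (red) and sham (blue) library; bars are exact 95% counting intervals. Sele, Cysltr1 and Vwf lie to the right and Glycam1 and Pglyrp1 to the left in both libraries.

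The 10 SAH and 12 sham cells with Selp but no Ackr1 UMI stood apart from those with both. They held 15111 and 11223 CPM of Fabp4, against 4724 and 5715 CPM in cells with both genes, and 1885 and 879.8 CPM of Cd36, against 289 and 135 CPM. Gpihbp1, which anchors lipoprotein lipase on capillaries, was at 740.4 and 158 CPM, against 133 and 55.6 CPM. The capillary gene Rgcc was not higher in these cells, at 219 and 147 CPM, against 256 and 174 CPM. The lymphatic gene Mmrn1 was at 0 CPM in SAH and 553 CPM in sham, against 23.3 and 17.4 CPM in cells with both genes. Lyve1, also lymphatic, was at 33.7 and 259 CPM, against 6.65 and 12.2 CPM. These levels rest on 10 SAH and 12 sham cells. Of the 82 Lyve1 UMIs in all sham venular cells, the richest cell held 23 and the second richest 20. A few cells can therefore set the sham lymphatic values, which do not describe the subset as a whole.

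The SAH library was set beside the sham library by the ratio of SAH to sham CPM in venular cells. Of 3187 genes that reached 50 CPM in either library, 283 (8.88%) stood 1.5-fold or more above sham and 274 (8.6%) as far below it in SAH. The median log2 ratio was -0.03. These ratios compare 2 libraries, with no replicate check. The 10 richest cells held 50% or more of the UMIs, in the library where the gene was higher, of 70 of the 283 higher and 29 of the 274 lower genes, so the named genes were taken from the rest. Irf7, the transcription factor that amplifies type I interferon production (chr7:141262706-141266481), reached 359 CPM in SAH, against 50.6 CPM in sham, 7.10-fold [5.46, 9.34]. It was detected in 71 of 132 SAH cells (53.8%) and 47 of 214 sham cells (21.96%), and in 36.8% and 8.13% after thinning; 40.0% of SAH and 6.96% of sham fibroblasts had an Irf7 UMI. H2-T23, the non-classical class I gene Qa-1, was at 811 CPM in SAH and 266 CPM in sham, 3.05-fold [2.68, 3.48]. Nr1d1, a repressor of the circadian clock, was at 144 and 37.7 CPM, 3.83-fold [2.74, 5.40]. Lgals3bp and Ifit3b, both interferon-responsive, were 2.95-fold [2.15, 4.08] and 2.96-fold [1.87, 4.78] higher. Each of these genes, Irf7 included, was also higher in SAH in HEV cells (2.72- to 6.12-fold) and in other blood endothelial cells (1.90- to 4.19-fold).

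A further 4 named genes had high ratios in every endothelial class described here. Ccdc85b was 7.44-fold [4.35, 13.5] higher, the ubiquitin ligase Trim37 6.499-fold [3.93, 11.2], Gstp1 3.27-fold [1.99, 5.47] and Grcc10 3.07-fold [2.13, 4.47]. For each of these 4, HEV cells (3.01- to 9.67-fold) and other blood endothelial cells (2.87- to 7.68-fold) had ratios of like size. Gstp1 has a near-identical copy in the genome, so its counts are uncertain. Effects of the animals and of library making cannot be told apart here, for these genes or for those named before them. Exoc3l2 (3.38-fold [2.28, 5.08], 96.3 CPM in SAH and 28.5 CPM in sham) and Anapc2, a subunit of the anaphase-promoting complex (3.12-fold [1.87, 5.31]), had smaller ratios in HEV cells, at 1.77 and 1.27, a difference that was not tested.

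**Figure D3:**
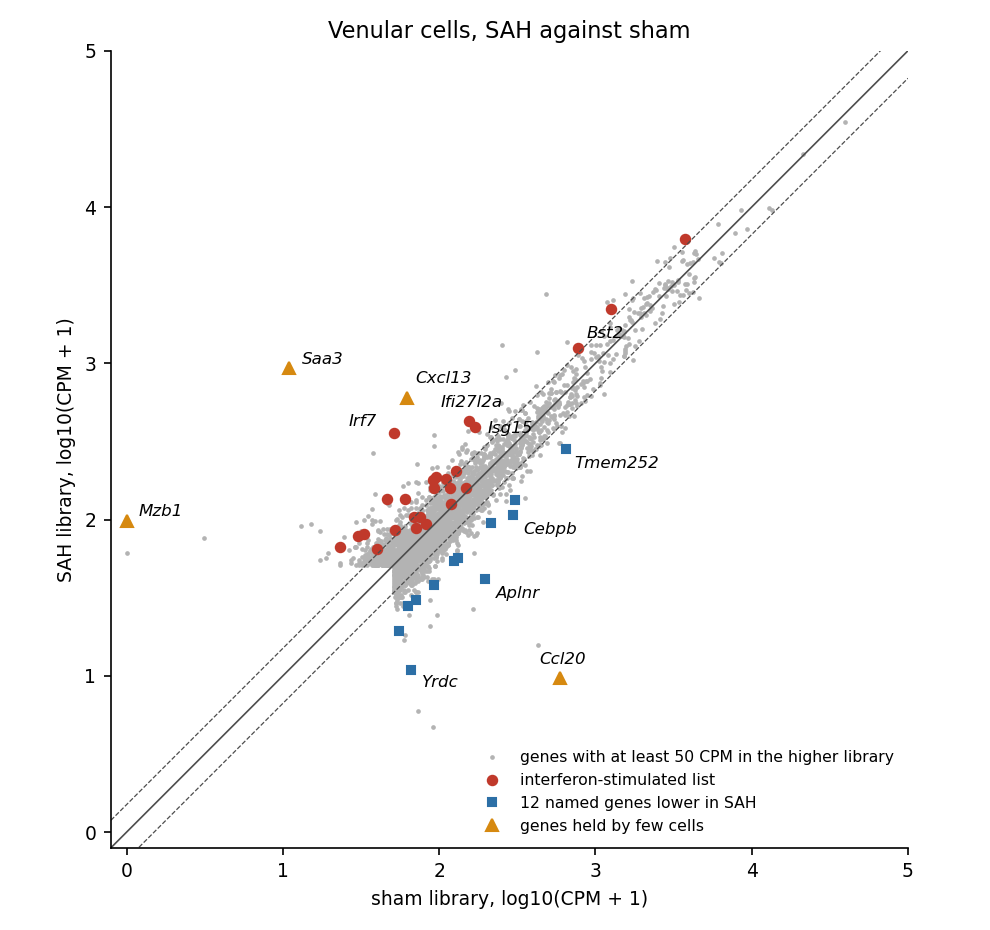
Gene levels in venular cells of the SAH library (vertical) and the sham library (horizontal), as log10(CPM + 1); the solid line marks equality and the dashed lines 1.5-fold. Irf7, Isg15 and Ifi27l2a lie above the lines, Aplnr and Cebpb below, and triangles mark genes held by few cells.

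On the lower side, Aplnr, the apelin receptor of venous and sprouting endothelium (chr2:85136225-85139923), was at 40.7 CPM in SAH, against 197 CPM in sham, 0.207-fold [0.140, 0.298]. A UMI was found in 22 of 132 SAH cells (16.7%) and 82 of 214 sham cells (38.3%), against 1.08% and 2.00% of fibroblasts. The transcription factor Cebpb was at 106 and 297 CPM, 0.357-fold [0.280, 0.452], and Tmem252 at 283 and 647 CPM, 0.437-fold [0.376, 0.505]. Thbs1, the matricellular and antiangiogenic thrombospondin 1, was at 93.8 and 214 CPM, 0.439-fold [0.337, 0.566], and Spry1, an inhibitor of growth factor signalling, at 53.1 and 124 CPM, 0.428-fold [0.299, 0.601]. These 5 genes were also lower in SAH in HEV cells, at 0.321- to 0.648-fold, and in other blood endothelial cells, at 0.365- to 0.561-fold. Yrdc, a tRNA modifying enzyme, had 9.87 CPM in SAH and 65.5 CPM in sham, 0.151-fold [0.0632, 0.310], and its ratios were 0.648 in HEV cells and 0.605 in other blood endothelial cells. The actin-binding Marcksl1 was at 132 and 305 CPM, 0.432-fold [0.346, 0.535], with ratios of 0.767 and 0.672 in these classes. Trps1, Rnf19b, Ssh1, Hypk and Arih1 completed the 12 named genes, at 0.342- to 0.438-fold, and Arih1 stood at 0.914-fold in HEV cells. Hypk was 0.422-fold in venular cells, 0.385-fold in HEV cells and 0.415-fold in other blood endothelial cells. Differences between classes in these ratios were not tested.

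**Figure D4:**
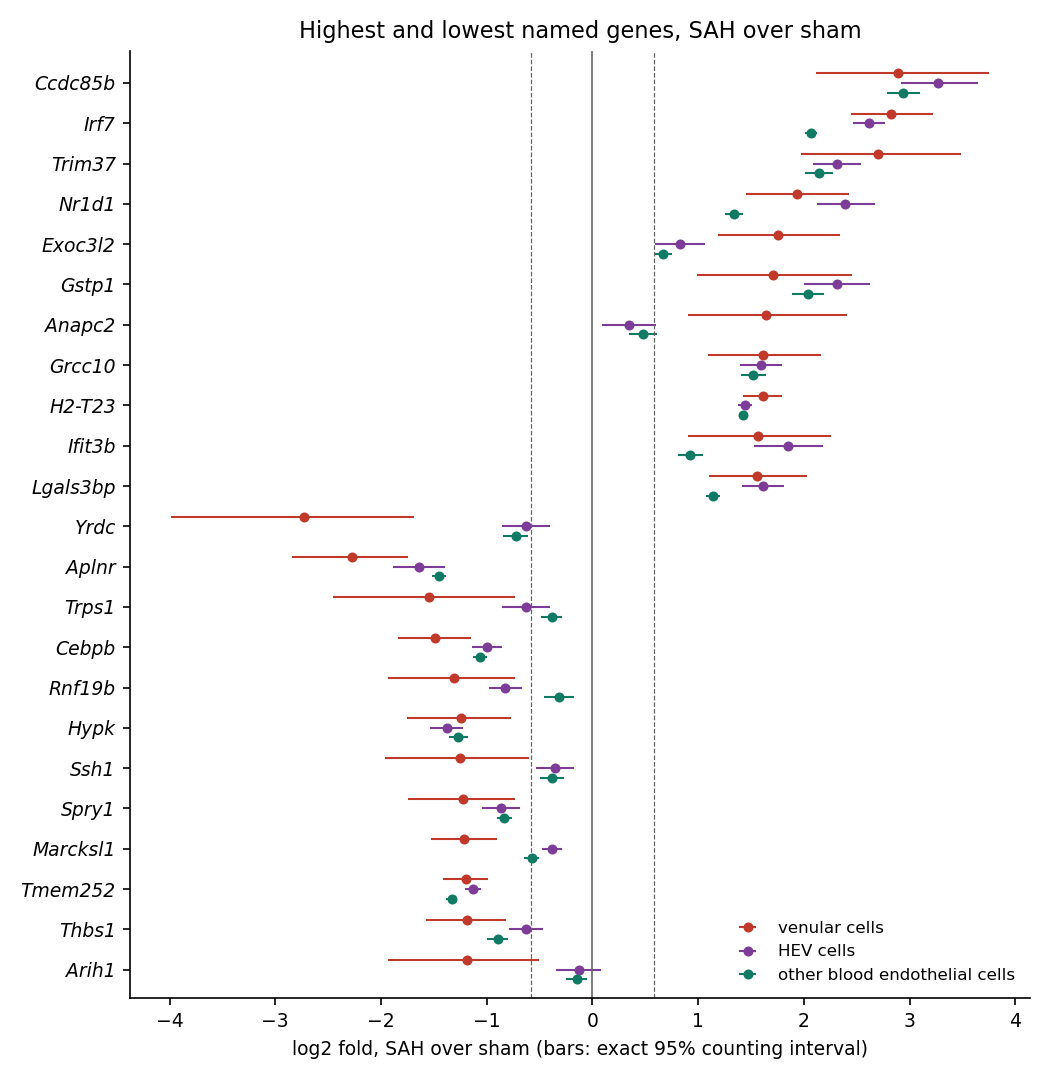
Ratio of SAH to sham CPM on the log2 scale for 11 of the 12 highest and the 12 lowest named genes of venular cells, in venular (red), HEV (purple) and other blood endothelial (green) cells; bars are exact 95% counting intervals and dashed lines mark 1.5-fold. Irf7, H2-T23 and Aplnr lie on the same side in the 3 classes, and Arih1 in HEV cells lies near 0.

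Interferon-stimulated genes were higher in SAH as a group. Of 37 list genes, 24 had a mean of 50 CPM or more in venular cells; 18 stood at least 1.5-fold above sham and 0 as far below, beside 7.53% and 7.6% of all genes at that level, and all 24 had a ratio above 1. Their median log2 ratio was 0.73, beside -0.03 over all genes at that level. Isg15, a ubiquitin-like modifier, was at 391 CPM in SAH and 169.5 CPM in sham, 2.31-fold [1.94, 2.74], in 56.1% and 39.7% of cells. Ifi27l2a was at 426 and 155 CPM, 2.74-fold [2.31, 3.26], with 71.0% and 57.3% of its UMIs in the 10 richest cells, and the antiviral enzyme Rsad2 (viperin) at 77.8 and 29.2 CPM, 2.66-fold [1.77, 4.05]. The membrane proteins Ifitm3, which blocks virus entry, and Bst2 (tetherin), which holds virions at the surface, were abundant in both libraries: 6228 and 3739 CPM for Ifitm3, and 1250 and 773 CPM for Bst2. The nucleic acid sensors Zbp1 (2.503-fold [1.69, 3.75]) and Eif2ak2 (1.66-fold [1.18, 2.34]) were also higher. Oasl2, Irf1, Sp100 and Trim30a had intervals that included 1. The same 24 genes gave 19 higher with a median of 0.85 in HEV cells, where 5.47% of the 2907 genes were higher and their median was -0.07. In other blood endothelial cells 16 were higher with a median of 0.70, where 5.44% of the 2907 genes were higher and their median was -0.03. Ifit1 was 1.53-fold [1.13, 2.08] higher in venular cells, against 3.51-fold in HEV cells and 2.08-fold in other blood endothelial cells.

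**Figure D5:**
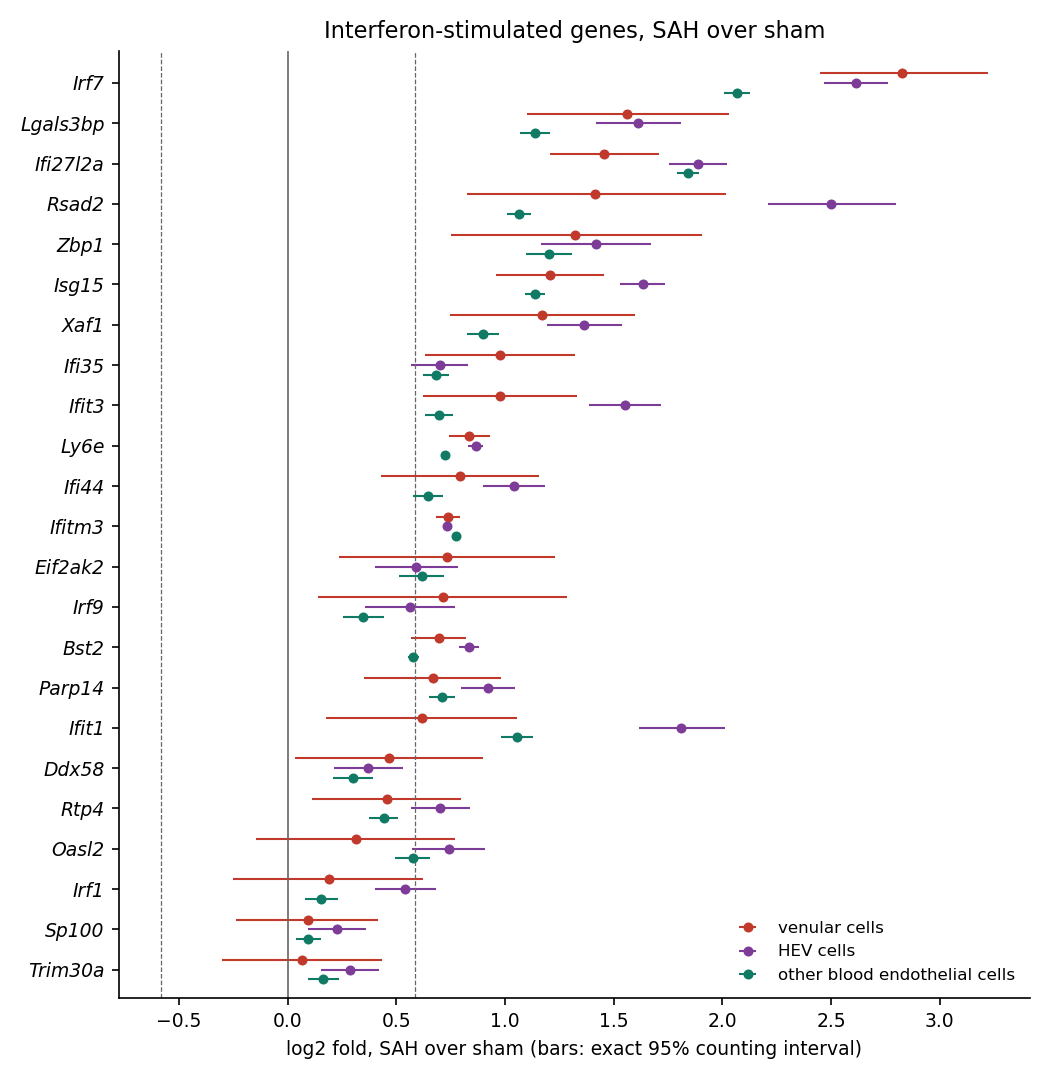
Ratio of SAH to sham CPM on the log2 scale for 23 of the 24 interferon-stimulated genes with a mean of at least 50 CPM in venular cells, in venular (red), HEV (purple) and other blood endothelial (green) cells; bars are exact 95% counting intervals and dashed lines mark 1.5-fold. All 23 venular points lie right of 0, and Irf7 is the farthest.

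Promoter windows from RefSeq (GRCm38.p6), 250 bases before to 50 bases after each gene's start, were searched for GAAANNGAAA or TTTCNNTTTC, the core that interferon regulatory factors bind, on both strands and with overlapping matches counted. It occurred in 3.44% of all 32851 windows and in 121 of the 2487 genes with a window and at least 50 CPM (4.87%). It occurred in 26 of 220 genes at least 1.5-fold higher in SAH (11.8%), in 9 of 221 at least 1.5-fold lower (4.07%), and in 9 of 18 interferon-stimulated list genes with a window. A match of letters is a description and not a binding site. The windows of Isg15, Ifit3b and Bst2 are shown because they hold the motif more than once, and that of Irf7 as the gene with the highest ratio of the list; matched letters are in capitals, and Irf7 has none in this window.
Isg15, chr4:156200769-156201068, minus strand: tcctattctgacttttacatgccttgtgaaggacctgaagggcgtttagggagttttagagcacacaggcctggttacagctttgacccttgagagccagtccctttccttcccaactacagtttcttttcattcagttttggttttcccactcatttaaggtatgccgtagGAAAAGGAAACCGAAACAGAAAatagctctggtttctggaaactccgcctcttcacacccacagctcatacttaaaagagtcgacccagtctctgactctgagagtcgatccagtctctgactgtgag
Ifit3b, chr19:34607707-34608006, plus strand: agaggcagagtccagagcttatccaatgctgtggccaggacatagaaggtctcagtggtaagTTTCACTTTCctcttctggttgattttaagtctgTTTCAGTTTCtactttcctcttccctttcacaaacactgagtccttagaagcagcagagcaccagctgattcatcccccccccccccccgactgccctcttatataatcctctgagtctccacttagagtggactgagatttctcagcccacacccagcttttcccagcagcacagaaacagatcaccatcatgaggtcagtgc
Bst2, chr8:71537423-71537722, minus strand: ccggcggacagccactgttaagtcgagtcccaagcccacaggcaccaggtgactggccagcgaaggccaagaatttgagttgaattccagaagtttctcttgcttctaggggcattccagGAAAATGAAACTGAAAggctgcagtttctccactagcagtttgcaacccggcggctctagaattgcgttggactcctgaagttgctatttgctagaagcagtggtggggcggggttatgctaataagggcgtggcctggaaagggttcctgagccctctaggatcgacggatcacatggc
Irf7, chr7:141266375-141266674, minus strand: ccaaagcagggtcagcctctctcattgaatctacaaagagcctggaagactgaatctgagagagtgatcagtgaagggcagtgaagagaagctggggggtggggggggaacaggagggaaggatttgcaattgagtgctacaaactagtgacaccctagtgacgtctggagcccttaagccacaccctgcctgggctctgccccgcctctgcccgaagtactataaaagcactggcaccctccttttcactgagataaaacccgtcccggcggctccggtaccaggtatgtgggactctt
In Isg15 the 3 matches overlap in a single run, and in Bst2 the 2 matches overlap, whereas those of Ifit3b are separate.

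Antigen presentation genes were less even. Of 20 class I pathway genes at this level, 6 were at least 1.5-fold higher in SAH and 0 lower, beside 7.53% and 7.6% of all genes, with a median log2 ratio of 0.38. Besides H2-T23 these were H2-Q4 (2.05-fold [1.68, 2.51]), H2-Q6 (1.60-fold), the immunoproteasome subunit Psmb8 (496 CPM in SAH and 305 CPM in sham), the proteasome activator Psme1 (428 and 256 CPM) and the chaperone Calr (512 and 335 CPM). The classical heavy chains differed in direction: H2-D1 was at 2822 and 1938 CPM, 1.46-fold [1.38, 1.54], and H2-K1 at 3510 and 4269 CPM, 0.822-fold [0.786, 0.860]. The same opposite pair was seen in HEV cells (1.58 and 0.855) and other blood endothelial cells (1.41 and 0.767). Class I heavy chains are close relatives, so reads may be divided among them and their single values are uncertain. Tap1, which loads peptides into the endoplasmic reticulum, was level at 116 and 118 CPM. Among 3 class II genes, the invariant chain Cd74 was 1.57-fold [1.30, 1.90] higher and H2-Aa and H2-Ab1 had intervals that included 1.

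Interferon-gamma-inducible GTPases, which attack vacuoles of intracellular microbes, had 2 of 9 members past the fold limit and higher in SAH in venular cells, 7 of 9 in HEV cells and 5 of 9 in other blood endothelial cells, beside 7.53%, 5.47% and 5.44% of all 2907 genes in these classes. Gbp4 (172 CPM in SAH and 71.9 CPM in sham, 2.39-fold [1.83, 3.11]) and Gbp7 (225 and 136 CPM, 1.65-fold [1.34, 2.03]) were the 2 higher ones. Gbp2 was at 80.2 and 84.0 CPM, 0.955-fold [0.694, 1.30], against 2.08-fold in HEV cells, and Ifi47 at 105 and 141 CPM, 0.744-fold [0.570, 0.964]. Median log2 ratios were 0.25 in venular cells, 0.84 in HEV cells and 0.60 in other blood endothelial cells. The difference between these counts was not tested.

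Of 8 complement genes at this level 4 were at least 1.5-fold higher in SAH and 0 lower, beside 7.53% and 7.6% of all genes. C3 had 909.5 CPM in SAH and 306 CPM in sham, 2.97-fold [2.63, 3.35], and C4b 163 and 57.7 CPM, 2.82-fold [2.13, 3.77]; the 10 richest cells held 78.8% and 69.1% of C3 UMIs. C1ra, the initiator protease (174 and 81.2 CPM), and Serping1, its inhibitor (289 and 138 CPM), were the other 2 higher ones. C1ra was spread more widely, in 60 SAH and 63 sham cells. Summed over the 9 fibroblast markers, venular cells held 2878 CPM in SAH and 1225 CPM in sham, HEV cells 1026 and 513 CPM, and other blood endothelial cells 4175 and 2246 CPM; 5 of 6 markers at the 50 CPM level were higher in SAH. Dcn, the most abundant, was at 1362 and 653 CPM in venular cells, of which the 10 richest held 91.6% and 84.2%; the part of these transcripts in the complement values was not tested. With cells bearing UMIs of other cell types left out, 2 complement genes instead of 4 were past the fold.

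Of 12 chemokine and cytokine genes at this level, 6 were higher and 2 lower in SAH, beside 7.53% and 7.6% of all genes. Cxcl12, the CXCR4 ligand, was at 1177 CPM in SAH and 421 CPM in sham, 2.80-fold [2.52, 3.11], in 98 of 132 and 120 of 214 cells, the 10 richest of which held 64.3% and 54.7% of UMIs. Ccl21a was 1.83-fold [1.74, 1.91] higher, mostly in cells without Selp, where the ratio was 2.34 [2.21, 2.48], against 1.01 [0.926, 1.10] in cells with Selp. The 10 richest cells held 65.5% of its venular UMIs in SAH and 47.2% in sham. Fibroblasts held 15706 CPM of it in SAH and 10732.5 CPM in sham. The other 4 higher genes, Cxcl13, Ccl19, Cxcl9 and Il33, had 79.4% to 96.3% of their UMIs in the 10 richest cells of a library, and Cxcl13 and Ccl19 are also in the fibroblast list. Cxcl13 had 485 UMIs in SAH and 86 in sham, and 1 SAH cell held 62.3% of them. Saa3, an acute phase gene outside this list, had 752 and 14 UMIs, of which 1 SAH cell held 69.0%. Ccl20 had 7 UMIs in SAH and 834 in sham, of which 2 sham cells held 70.3%. Cxcl10 had 111 UMIs in SAH and 498 in sham, and 1 cell held 58.6% and 56.2% of them. Mzb1, a plasma cell gene chosen after its values were seen, had 79 UMIs in SAH, 77 of them in 1 cell, and 0 in sham, and Hbb-bs had 598 UMIs in sham, 592 of them in 1 cell. Such ratios describe a few cells and not the class.

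Among genes of clotting and of the response to flow, Vwf, F8 and Entpd1 were higher in SAH, and Thbd and Klf2 had ratios on opposite sides of 1 in venular cells and in the other classes. Vwf was higher in SAH at 1.87-fold [1.63, 2.16]. It was higher among cells with Selp (1.69-fold [1.43, 2.01]) and without Selp (2.59-fold [1.99, 3.37]), and in HEV cells (2.25-fold [2.07, 2.45]). Factor VIII (F8), which circulates bound to von Willebrand factor, was at 71.6 CPM in SAH and 40.6 CPM in sham, 1.76-fold [1.202, 2.59], and the ADP-degrading Entpd1 at 227 and 144 CPM, 1.58-fold [1.29, 1.94]. Thrombomodulin (Thbd), which turns thrombin towards activating protein C, was 1.37-fold [1.13, 1.67] higher in venular cells, at 231 and 168 CPM, but 0.806-fold in HEV cells and 0.849-fold in other blood endothelial cells. The flow-responsive transcription factor Klf2 was at 1188 and 936 CPM, 1.27-fold [1.17, 1.38], against 0.836-fold and 0.763-fold in those classes. Klf2 was higher in both venular subsets, at 1.35-fold [1.19, 1.52] with Selp and 1.21-fold [1.07, 1.36] without. Serpine2 and Thbs1 were the 2 of 12 coagulation genes at least 1.5-fold lower and 3 were higher, set against 7.6% and 7.53% of all genes at this level. Among 6 genes of the Weibel-Palade list only Vwf passed 1.5-fold, and Selp itself, used by the rule, was at 162 and 182 CPM.

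Of 13 vein and venule genes 4 passed 1.5-fold upwards in SAH and 2 downwards, beside 7.53% and 7.6% of all genes at this level. Lrg1 was 1.51-fold [1.43, 1.60] higher, the TGF-beta co-receptor Eng 1.51-fold [1.36, 1.68] (835 and 552 CPM) and the proteoglycan Bgn 2.01-fold [1.63, 2.49]; Vwf was the fourth. Nr2f2, the factor that specifies veins, was at 167 CPM in SAH and 192 CPM in sham, 0.867-fold [0.699, 1.07], and Ephb4, the venous ephrin receptor, at 111 and 83.3 CPM. Aplnr and Cpe were the 2 lower ones. Of 13 junction genes 2 were lower and 0 higher, beside 7.6% and 7.53%. Cdh5 was at 557 and 811 CPM, 0.686-fold [0.614, 0.766], and had a like ratio in HEV (0.724) and other blood endothelial cells (0.696), whereas Pecam1, used by the rule, was level at 1486 and 1480 CPM. Cldn5, the tight junction claudin, was at 75.3 and 120 CPM, and the 10 richest sham cells held 75% of it. The gap junction gene Gja1 was the other at 0.651-fold.

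Of 21 immediate early genes 0 were at least 1.5-fold higher and 4 lower, beside 7.53% and 7.6% of all genes at this level, with a median log2 ratio of -0.18. The AP-1 members Fosl2 (146 CPM in SAH and 268 CPM in sham, 0.542-fold [0.437, 0.669]) and Jund (1043 and 1737 CPM, 0.6004-fold [0.555, 0.650]) were among the 4, with Ier5 and Cyr61, while Fos (1643 and 1804 CPM) and Jun (1626 and 1489 CPM) were nearly level. Of 10 heat shock genes 0 passed the limit in either direction. Of 11 glucocorticoid response and metallothionein genes, 4 were lower and 0 higher, among them Errfi1, a brake on the EGF receptor, at 56.8 and 123 CPM. Of 16 NF-kB targets 1 was higher, Nfkb2 at 82.7 and 50.6 CPM, and 3 lower, namely Cebpb, Tnip1 and Ccl20. For Ccl20, 2 sham cells held 70.3% of the sham UMIs, so its ratio describes a few cells. The inhibitor Nfkbia was at 1112 and 1517 CPM, 0.733-fold [0.677, 0.792]. The 3 cell cycle genes at this level were all lower, at a median log2 ratio of -0.87. Stmn1 was at 25.9 and 164 CPM, but the 10 richest sham cells held 73.2% of it, and Top2a had 0 UMIs in SAH and 36 in sham.

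The remaining lists are given as counts past the limit, beside 7.53% higher and 7.6% lower over all genes at this level. These were 2 higher and 1 lower of 7 haem, iron and NRF2 genes, 1 and 1 of 8 VEGF and angiopoietin genes, 1 and 3 of 18 matrix genes, 0 and 1 of 4 genes of L-selectin ligand synthesis, and 0 and 1 of 4 of its scaffolds. The lymphotoxin, RANK and CD40 list had 1 higher of 4, and sphingosine phosphate genes (6 genes) had 0 in either direction. The haem oxygenase Hmox1, which breaks down haem, was sparse, with 13 UMIs in SAH and 26 in sham. Prdx1, a peroxide-reducing enzyme, was at 573 CPM in SAH and 862 CPM in sham, 0.664-fold [0.595, 0.740]. Of other cell types, B-cell markers summed to 33.3 CPM in SAH and 6.41 CPM in sham venular cells, T-cell markers to 0 and 3.56 CPM, myeloid markers to 4.94 and 11.4 CPM and platelet markers to 25.9 and 45.6 CPM. Lymphatic markers summed to 92.6 and 765 CPM, most of the sham value being Ccl20, and mural markers to 353 and 429 CPM. Erythroid markers summed to 23.4 and 598 CPM, of which Hbb-bs made up 14.8 and 426 CPM, and salivary markers to 146 and 122 CPM. Capillary markers had 3 higher and 1 lower of 7, and blood endothelial markers 2 higher of 9.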

How the data were processed

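Single-cell RNA was measured in 1 SAH and 1 sham library. What was deposited is whole-number UMI counts, a matrix for each library, with no normalization. The submitters' processing notes list Cell Ranger 5.0, STAR, Seurat 3.0.2 and mm10, and the file headers give 5.0.0. Per the labels molecules were tagged at their 5′ end, so counts depend on the annotated starts of genes. Lists and members were chosen with earlier results of these data known.

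Counts of a class were summed per library and given as CPM; deep cells weigh more in such sums. A fold is SAH over sham, or venular over the other class, with an exact conditional binomial interval; shares have exact Clopper-Pearson intervals. UMIs count molecules, so intervals cover counting error only. With 1 library per group no test was made, and cells are not replicates. Named genes were the 12 highest and 12 lowest SAH over sham folds that reached 50 CPM (0.5 counts added for ranking only), the 10 richest cells holding under 50% of UMIs in the library where the gene was higher, and the 10 highest and 10 lowest between classes. Genes used by the rule, ribosomal, mitochondrial, immunoglobulin, haemoglobin and predicted genes were left out of the naming, and genes over 10 times higher in another class were set apart. Lists count genes with a mean of at least 50 CPM.

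Doublets were called with Scrublet in scanpy 1.11.5 (expected rate 0.1) and kept. The fold and interval code was tested on simulated data. Python 3.11.15, numpy 2.4.6, scipy 1.17.1 and pandas 2.3.3 were used. Alternatives changed the cell filter, the gate, doublets, depth, cells with UMIs of other types, scaling, weighting of cells, the CPM minimum and the fold; a limit of 50 Glycam1 UMIs per 10000 was added after seeing the data. Some genes are not reported here.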

Additional observations from a re-analysis of the deposited data

Results flagged for a closer look

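In 7 genes of the lists the ratio of SAH to sham lay on opposite sides of 1 in venular cells and in the cells beside them, with each interval off 1. None of these differences was tested. The genes were picked for this pattern and no share over all genes stands beside the count, so it does not show whether 7 is many or few. The CXCR3 ligand Cxcl10 was 0.386-fold in venular cells and 2.74-fold in HEV cells; 1 cell held 58.6% of its venular UMIs in SAH and 56.2% in sham. The other genes were set against HEV and other blood endothelial cells. Klf2 was 1.27-fold in venular cells, against 0.836- and 0.763-fold, and Thbd 1.37-fold, against 0.806- and 0.849-fold. Cd55, which restrains complement, was 0.679-fold, against 1.12- and 1.21-fold, and Tnip1, an inhibitor of NF-kB signalling, 0.616-fold, against 1.26- and 1.33-fold. The granule protein Cd63 was 0.796-fold, against 1.08- and 1.27-fold. The pericyte gene Rgs5 was 0.614-fold, against 1.64- and 1.13-fold, and the 10 richest cells held 96.4% of its venular UMIs in SAH and 81.0% in sham.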

How the results depend on the processing

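No paired analysis was possible because each group is 1 library. The ratio of venular shares stayed between 0.534 and 0.649 under 6 alternatives and was 0.759 with at least 1000 genes and at most 5% mitochondrial UMIs. The SAH over sham counts of 283 higher and 274 lower genes became 78 and 43 at 2-fold, 1136 and 1107 at 10 CPM, and 2325 and 1744 with no minimum; with at least 1 UMI of each of Ackr1 and Selp 485 were higher. For venular over HEV cells, 103 higher and 70 lower became 36 and 32 at 2-fold, 456 and 156 at 10 CPM, 1471 and 223 with no minimum, and 63 and 107 with median-of-ratios scaling, and 68 were higher with cells bearing UMIs of other types left out. For venular over other blood endothelial cells, 100 and 185 became 39 and 62 at 2-fold, 245 and 523 at 10 CPM, and 759 and 755 with no minimum. Of 625 values of named genes 578 stayed within the interval of the main analysis, 47 moved outside it, and 0 reversed. For ratios between classes this interval ran from the lowest to the highest bound of the 2 libraries, which is wider than counting error. Complement genes past the fold numbered 2 with cells bearing UMIs of other types left out, against 4. Interferon-gamma GTPases past it numbered 1, against 2, under 2 alternatives. Shares of cells with a UMI moved in 9 of 10 cases on thinning.

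Depth limits every statement on a class of 132 SAH and 214 sham cells. Cells near the limits of the rule, free Glycam1 RNA and single cells rich in a gene bear on the class, and 1 pool of mice per group gives no measure of biological spread.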
